A study of Mus musculus with 12 samples.

Results

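A set of 9 genes of the Notch pathway, of the 17358 genes in the deposited table, was followed in RNA-seq libraries of perivascular macrophages from mouse brain. These macrophages sit beside cerebral blood vessels. They are the receptors Notch1, Notch2 and Notch4, the surface proteases Adam10 and Adam17, the DNA-binding protein Rbpj, its coactivators Maml1 and Maml2, and the target gene Hes1. They were found by gene symbol, and the set was put together because Notch2 was higher in libraries from old mice. The difference between the ages is therefore given for them as a description, with no test. The study set 5 libraries from aged C57BL mice (18 months) against 7 from young adult C57BL mice (3 months), with no treatment or genetic change named in the labels. The libraries are called biological replicates, and the labels give neither the number of mice or cells behind each one nor the sort marker, sex or batch, so any p-value measures only the spread between these libraries.

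Notch receptors span the membrane and are switched on by ligands of the Delta and Jagged families on neighbouring cells. Ligand binding exposes the receptor to ADAM10, and gamma-secretase then cuts the stub within the membrane and frees the intracellular domain. That domain enters the nucleus, where it joins RBPJ and a Mastermind-like protein (MAML1, MAML2 or MAML3) to switch on genes such as those of the Hes and Hey families. In mice, Notch2 is known for its part in the formation of marginal zone B cells and of some dendritic cells of the spleen.

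Library totals ranged from 23214816 to 30628789 estimated counts, and between 8013 and 10266 genes had at least 5 counts. The defining markers of perivascular macrophages (10 genes, among them Mrc1, Cd163 and Lyve1) summed to between 11897 and 16292 CPM (counts scaled to the library total) in aged and between 13280 and 18534 CPM in young libraries. The 8 microglia markers summed to between 3760 and 5780 CPM in aged and between 4793 and 7434 CPM in young libraries. Endothelial markers, which matter here because vessels express Notch1 and Notch4, summed to at most 4.9 CPM in aged and at most 33.7 CPM in young libraries, and 4 of the 10 (Flt1, Tek, Ly6c1 and Esam) were under 3 counts in every library. Mural cell markers summed to at most 7.0 CPM in aged and at most 16.2 CPM in young libraries. Aged libraries 1, 3 and 4 stood apart from all others on the first principal component of the 500 most variable genes (between −39.3 and −30.1, against −2.1 to 20 in the other 9). In bulk libraries, fewer cells of a type and less RNA per cell cannot be told apart.

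Notch2 was by far the most abundant receptor. Levels of different genes were compared as FPKM, which divides counts by transcript length and library total. Notch2 lay between 101 and 428 FPKM in aged libraries and between 74.8 and 178 FPKM in young ones, which placed it between rank 270 and rank 1000 of all genes in aged and between rank 588 and rank 1246 in young libraries. Notch1, the receptor best known from T cell development, lay between 0.51 and 2.43 FPKM in aged and between 0.35 and 5.51 FPKM in young libraries. Within each library Notch2 exceeded Notch1 (12 of 12), on average 98.8-fold, with a within-library ratio between 19.4 and 332. The mean log2 ratio of Notch2 over Notch1 was 6.63 ± 1.201 (SD, n = 12; exact two-sided sign-flip permutation p = 0.000488, the smallest that 12 libraries allow, and 0.000977 adjusted over the 4 pairs of related genes compared). It was 7.46 ± 0.82 over the aged and 6.03 ± 1.10 over the young libraries. Because the set was chosen for higher Notch2 in aged libraries, the larger aged ratio restates that choice and was not tested. The ratio over all 12 libraries and its p-value include those aged values, so the test is not independent of the choice. How many other pairs of genes would pass it was not examined. These ratios carry a pseudocount of 0.1 FPKM.

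Notch4, a receptor best known from blood vessels, was at or near 0. It had 16 and 251 counts in aged libraries 3 and 4 and at most 1 count in the other 3 aged libraries, against 78 counts in young library 3 and at most 1 in the other 6 young libraries. In terms of CPM, 3 counts correspond to between 0.098 and 0.129. The gene did not pass the filter on low counts and has no fold change. Notch1 exceeded Notch4 in 11 of 12 libraries (mean log2 ratio 3.28 ± 1.81, SD, n = 12; exact sign-flip permutation p = 0.000977, 0.0013 adjusted over the 4 pairs). Because Notch4 was listed at 0 in most libraries, the size of this ratio depends on the pseudocount, and it was 1.18 with a pseudocount of 1 FPKM. Aged library 4 was the exception, with 1.31 FPKM of Notch1 and 1.58 FPKM of Notch4. That library's endothelial markers summed to 0.083 CPM, and its mural cell markers to 7.0 CPM, the highest aged sum. The source of its Notch4 counts was not tested.

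Adam10, which makes the first ligand-dependent cut in the receptor, was the next most abundant gene of the set, between 46.9 and 178 FPKM in aged and between 53.1 and 131 FPKM in young libraries. Adam17, a related protease best known for releasing tumour necrosis factor from the cell surface, lay between 2.48 and 15.4 FPKM in aged and between 6.69 and 28.1 FPKM in young libraries. Adam10 exceeded Adam17 in 12 of 12 libraries by a mean of 9.34-fold (log2 ratio 3.22 ± 1.27, SD, n = 12; exact sign-flip permutation p = 0.000488, 0.000977 adjusted over the 4 pairs). The coactivators also differed: Maml1 was lower than Maml2 in 11 of 12 libraries, with a mean log2 ratio of −2.89 ± 2.81 (SD, n = 12; exact sign-flip permutation p = 0.00635, the same after adjustment). Young library 1 was the exception, with 9.26 FPKM of Maml1 and 1.29 FPKM of Maml2.

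By median FPKM over all libraries the order was Notch2 (119), Adam10 (105), Rbpj (23.1), Maml2 (15.7), Adam17 (9.98), Hes1 (5.74), Maml1 (1.90), Notch1 (1.34) and Notch4 (0). Notch2 lay above Adam10 in 11 of 12 libraries and Adam10 above Rbpj in all 12. Further down the ranges overlapped widely. Maml2 lay above Adam17 in only 6 of 12 libraries, Adam17 above Hes1 in 7 and Maml1 above Notch1 in 7, so these neighbours have no fixed order. The plot of per-length levels shows the 9 genes in this order.

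**Figure D1:**
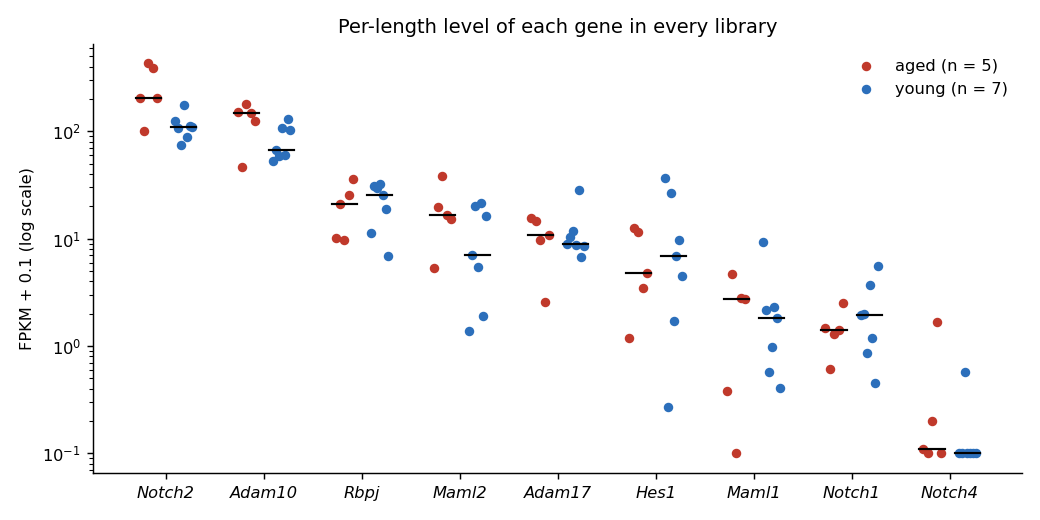
Level of each gene in FPKM plus 0.1, on a log scale, in every aged (left, red, n = 5) and young (right, blue, n = 7) library, with black bars at the group medians. Notch2 and Adam10 sit above the other 7 genes in both groups, and most Notch4 points lie at the floor.

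Between the ages, Notch2 was higher in most aged libraries. Levels are given from here on as CPM scaled by TMM factors (normalised CPM). Notch2 was at 2317, 1086, 5255, 4677 and 1886 normalised CPM in aged libraries 1 to 5, whereas young libraries ranged from 755 to 1501 with a median of 1167. Thus 4 of 5 aged libraries lay above the highest young one, aged libraries 3 and 4 were the highest of all, and aged library 2 lay inside the young range, so the groups overlapped. The means were 3044 ± 1820 in aged and 1147 ± 296 normalised CPM in young libraries (SD, n = 5 and n = 7), a log2 fold change of 1.41 ± 0.32 (SE, edgeR). This value became 1.08 when aged library 3 was left out, 1.63 when aged library 2 was left out, and 0.36 when aged libraries 1, 3 and 4 were left out together. Aged libraries 1, 3 and 4 held the most Notch2 of all, so a lower value without them was fixed in advance. Notch2 lies on the plus strand of chromosome 3 from 98013538 to 98150367 (GRCm38.p6).

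Adam10 was high in the same aged libraries as its substrate. It was at 749, 219, 952, 782 and 505 normalised CPM in aged libraries 1 to 5, whereas young libraries ranged from 234 to 593 with a median of 327. Aged libraries 1, 3 and 4 lay above every young library and aged library 2 lay below every young one. The means were 641 ± 285 in aged and 364 ± 130 normalised CPM in young libraries, with a log2 fold change of 0.82 ± 0.32 (SE). Leaving out aged libraries 1, 3 and 4, which held the most Adam10 and so had to lower the value, gave −0.02. Levels in which aged libraries 1, 3 and 4 all exceeded the other 9 were found for 271 of the 9550 genes tested (2.84%), Notch2 and Adam10 among them, and for no other of the 9 genes. Adam10 lies on the plus strand of chromosome 9 from 70678944 to 70780229.

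**Figure D2:**
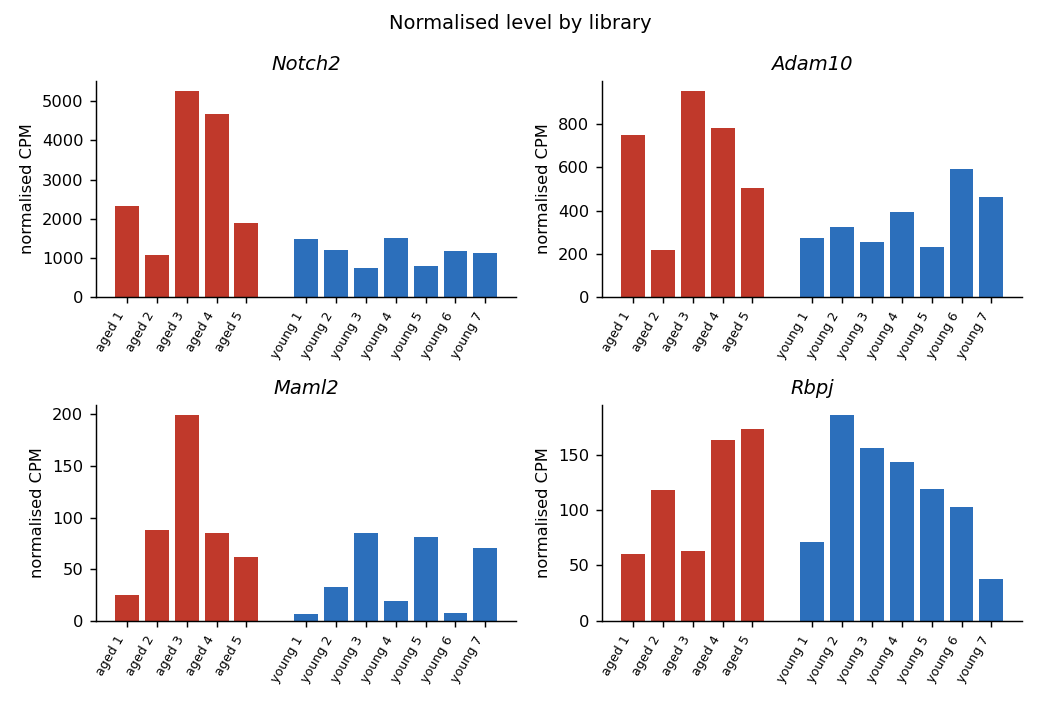
Normalised CPM of Notch2, Adam10, Maml2 and Rbpj in each aged (left, red) and young (right, blue) library, with bars from 0. Notch2 and Adam10 are highest in aged libraries 3 and 4 and aged library 2 stays low for both, while the aged Rbpj values lie within the young range.

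The start regions of Notch2 and Adam10 are shown because these 2 genes were high in the same libraries. The windows come from RefSeq (GRCm38.p6) and run from 250 bases before to 50 bases after the transcript start, and a window was found for 8 of the 9 genes, Hes1 having none. Capitals mark the GC box GGGCGG, the motif of Sp1-like factors, on either strand.
Notch2, chr3:98013288-98013587, plus strand: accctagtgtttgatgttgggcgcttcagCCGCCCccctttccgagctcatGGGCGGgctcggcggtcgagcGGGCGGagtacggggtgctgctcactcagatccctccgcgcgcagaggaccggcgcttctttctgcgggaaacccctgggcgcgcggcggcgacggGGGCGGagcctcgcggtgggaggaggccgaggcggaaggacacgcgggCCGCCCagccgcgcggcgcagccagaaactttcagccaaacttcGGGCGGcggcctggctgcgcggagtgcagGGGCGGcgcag
Adam10, chr9:70678732-70679031, plus strand: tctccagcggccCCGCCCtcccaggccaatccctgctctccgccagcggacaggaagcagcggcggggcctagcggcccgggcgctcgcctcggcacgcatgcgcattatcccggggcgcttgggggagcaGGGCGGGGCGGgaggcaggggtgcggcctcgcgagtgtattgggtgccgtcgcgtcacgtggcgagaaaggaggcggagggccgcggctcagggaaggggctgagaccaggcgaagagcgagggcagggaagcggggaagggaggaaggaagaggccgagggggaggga
The Notch2 window held 7 GC boxes and that of Adam10 held 3, of which 2 share a base. A GC box was present in 35.7% of all 32851 windows, and 7 or more were present in 0.627%. GC boxes were not particular to these 2 genes. The windows of Notch1, Maml1 and Adam17 held 5, 2 and 1, 1 Rbpj window held 1, and those of Notch4 and Maml2 held none. The Notch2 and Adam10 windows were rich in G and C (73.0% and 73.3%, against a median of 52.7% over all windows). They were also rich in the dinucleotide CG (41 in Notch2 and 32 in Adam10, against a median of 7). Other windows of the set held between 48.0% (Maml2) and 70.0% (Adam17) G and C, and between 2 (Maml2) and 30 (Adam17) CG. Neither the Notch2 nor the Adam10 window held the letters TGGGAA, the core bound by RBPJ, on either strand.

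Among the 8 genes with a window, only Rbpj and Maml2 held TGGGAA, which 25.6% of all windows hold. Both genes have 2 windows, and 1 of each is printed with the core in capitals, written TTCCCA where it lies on the opposite strand.
Rbpj, chr5:53590096-53590395, plus strand: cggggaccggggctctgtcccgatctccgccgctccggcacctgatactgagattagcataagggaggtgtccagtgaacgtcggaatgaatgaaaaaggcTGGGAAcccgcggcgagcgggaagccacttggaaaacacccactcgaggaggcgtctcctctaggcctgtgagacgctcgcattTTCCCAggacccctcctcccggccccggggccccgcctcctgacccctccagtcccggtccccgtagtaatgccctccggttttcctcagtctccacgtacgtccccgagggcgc
Maml2, chr9:13662210-13662509, plus strand: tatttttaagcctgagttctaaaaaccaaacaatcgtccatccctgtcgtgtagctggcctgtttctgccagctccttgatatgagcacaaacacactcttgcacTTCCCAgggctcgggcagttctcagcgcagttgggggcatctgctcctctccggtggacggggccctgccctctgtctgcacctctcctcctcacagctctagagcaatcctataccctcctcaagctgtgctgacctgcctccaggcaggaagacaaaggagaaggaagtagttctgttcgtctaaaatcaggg
The Rbpj window held 2 cores, at −149 on the gene's own strand and at −65 on the opposite strand, counted from the transcript start. The Maml2 window held 1, at −145 on the opposite strand. The other Rbpj window (53590236-53590535) overlaps the printed one, and its 1 core, at −205, is the same site as the one at −65. The other Maml2 window (13297708-13298007) lies nearer the start of the locus (13296561) than the printed one and held none. A match of letters is a description of the window and does not show that a factor binds there.

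Maml2 was at 25.1, 87.8, 199, 84.7 and 62.1 normalised CPM in aged libraries 1 to 5, and young libraries ranged from 6.4 to 84.9 with a median of 33.1. Only aged libraries 2 and 3 exceeded the highest young library. The means were 91.8 ± 65.2 in aged and 43.4 ± 34.7 normalised CPM in young libraries (SD), with a log2 fold change of 1.08 ± 0.66 (SE). It was 0.56 without aged library 3. Maml1, the founding member of this coactivator family, was at 1.6, 30.1, 0, 17.4 and 13.1 normalised CPM in aged libraries 1 to 5, and young libraries ranged from 1.7 to 57.7 with a median of 11.0. Its log2 fold change of −0.24 ± 1.34 (SE) was −0.87 without aged library 2, and turned to 0.69 without young library 1 and to 0.57 without aged libraries 1, 3 and 4. Maml2 lies on chromosome 9 from 13296561 to 13709533 and Maml1 on chromosome 11 from 50255634 to 50293131.

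Rbpj, through which all Notch receptors reach their targets, showed no difference between the ages beyond the spread of the libraries. Whether its levels were equal was not tested. It was at 60.7, 118, 62.8, 163 and 173 normalised CPM in aged libraries 1 to 5, and young libraries ranged from 38.0 to 186 with a median of 120 (log2 fold change −0.01 ± 0.40, SE). The aged values lay wholly within the young range. Aged libraries 1 and 3, both among the 3 with the most Notch2, were the lowest aged ones for Rbpj. Rbpj lies on chromosome 5 from 53555779 to 53657445.

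Hes1, a transcriptional repressor and the best known Notch target, varied widely within each age. It was at 1.6, 17.6, 18.7, 5.5 and 5.8 normalised CPM in aged libraries 1 to 5, and young libraries ranged from 0.25 to 57.3 with a median of 8.1. This corresponds to between 7 and 1548 counts. The log2 fold change was −0.82 ± 1.21 (SE), and −0.15 without young library 1. The 2 libraries with the most Notch2, aged 3 and aged 4, held 18.7 and 5.5 normalised CPM of Hes1, against 57.3 and 35.1 in young libraries 1 and 3 and between 0.25 and 12.9 in the other 5 young libraries. Hes1 lies on chromosome 16 from 30065357 to 30067796.

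Notch1 was at 14.1, 5.0, 13.2, 14.3 and 20.5 normalised CPM in aged libraries 1 to 5, and young libraries ranged from 3.3 to 51.5 with a median of 19.1. Its log2 fold change was −0.55 ± 0.93 (SE), and −0.09 without young library 7, the highest one. Adam17 was at 73.5, 65.5, 49.6, 12.7 and 41.5 normalised CPM in aged libraries 1 to 5, and young libraries ranged from 29.2 to 106 with a median of 43.7 (log2 fold change −0.02 ± 0.52, SE). For both genes the groups overlapped along most of their range. The libraries do not mark the strand, and the annotation places exons of other genes over those of Adam17 (Iah1, opposite strand), Notch1 (0610009E02Rik and Gm13568, opposite strand), Maml1 (Gm26542, antisense), Notch2 (Gm42820, same strand) and Maml2 (Gm22643, a miRNA gene on the same strand), so reads from the shared bases cannot be told apart.

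Of the set, 0 of the 8 genes that passed the filter were called by edgeR's quasi-likelihood test at an adjusted p under 0.05, a threshold that 1 of the 9550 genes tested passed (0.0105%), and 0 of the 8 had groups without overlap (57 genes, 0.597%). By an unadjusted p under 0.05 the share of all genes was 5.97%. Notch2 alone of the 8 was called under 3 alternatives, which were edgeR with legacy=FALSE (0.398% of all genes called), DESeq2 (1.27%) and the fit without aged library 2 (0.755%). With voom weights, where 0.0209% of all genes were called, and without aged libraries 1, 3 and 4, where 0 of 11292 were, none of the 8 was called. Since Notch2 was chosen on this contrast, nothing is read from these counts. Of the 8, 3 had positive and 5 negative log2 fold changes, with a median of −0.02, and the median over all genes tested was −0.01. The coefficient of variation of Notch2 in young libraries was 25.8%, near the median of 23.8% for the 98 tested genes within 2-fold of its mean level. That of Adam10 was 35.8% (median 26.6% for genes of like level), of Rbpj 43.6% (39.6%), of Adam17 53.5% (54.1%), of Maml2 80.0% (49.6%), of Notch1 84.0% (81.8%), of Hes1 122% (87.6%) and of Maml1 132% (88.5%).

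**Figure D3:**
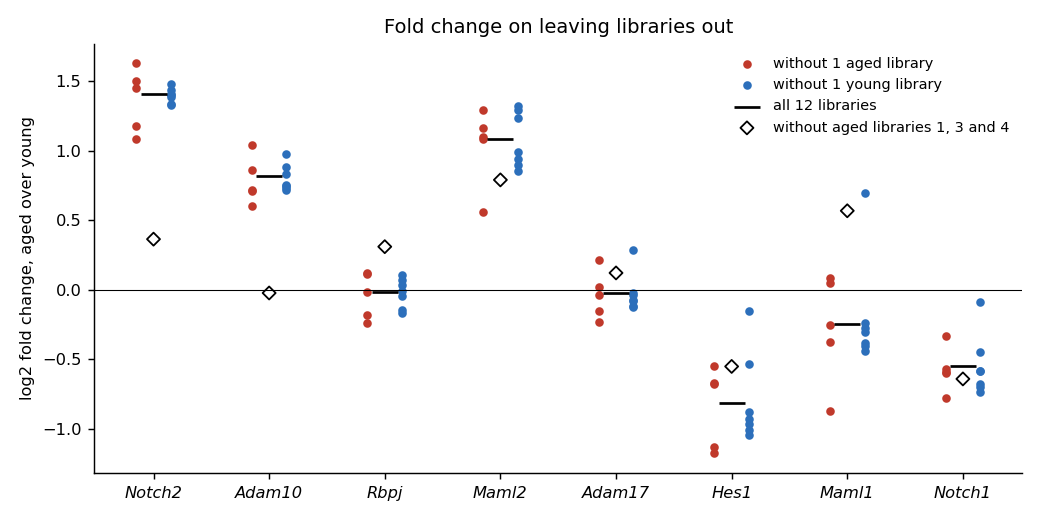
Log2 fold change, aged over young, of the 8 genes that passed the filter, with all 12 libraries (black bar), without each aged (left, red) or young (right, blue) library, and without aged libraries 1, 3 and 4 (open diamond). Notch2 keeps a positive value throughout, and Adam10 drops to −0.02 only without the 3 aged libraries.

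The markers of choroid plexus epithelium, led by Ttr, separated the ages as a sum and are given beside Notch2 for that reason. They summed to 564, 1100, 453, 1146 and 287 CPM in aged libraries 1 to 5 and to between 65.7 and 178 CPM in young libraries. Aged library 2, the aged library with the least Notch2, had 1100 CPM of these markers, and aged library 3, with the most Notch2, had 453 CPM. Aged library 4, which came next for Notch2, had the highest sum, 1146 CPM. Taken singly, Ttr separated the ages (176 to 1051 normalised CPM in aged, 55.3 to 146 in young libraries). So did Enpp2 (36.1 to 204 in aged, 0 to 30.6 in young libraries), whereas Kcnj13, Folr1, Clic6 and Prlr overlapped. Microglia markers summed to 3760, 5780, 4311, 4910 and 4735 CPM in aged libraries 1 to 5, so that aged library 2 had the highest aged sum. Total counts were lowest in aged libraries 3 and 4 (23214816 and 23962015). Aged libraries 1 to 5 had 8013, 9429, 8229, 8099 and 9470 genes with at least 5 counts. Young libraries had between 8050 (young library 1) and 10266 (young library 4) such genes. The part of these features in the Notch2 values was not tested.

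Over the 12 libraries, the 5 tested genes whose profile was most like that of Notch2 were Sfpq, Clasp2, Dse, Cbx3 and Hsf2. Likeness was the root mean square difference of log2(CPM + 1) after centring each gene, which was 0.22 for Sfpq, 0.23 for Clasp2, 0.24 for Dse and 0.25 for Cbx3 and Hsf2, with a median of 1.67 over all tested genes. Sfpq encodes a splicing factor, Clasp2 a microtubule-binding protein, Dse an epimerase of dermatan sulfate synthesis, Cbx3 a heterochromatin protein and Hsf2 a heat shock factor. Sfpq was at 918, 379, 1930, 1754 and 875 normalised CPM in aged libraries 1 to 5, the same order of aged libraries as for Notch2. Because Sfpq was picked for its likeness over these libraries, a like order follows from that choice. Of the other genes of the set, Adam10 came nearest (0.47, rank 86), followed by Notch1 (1.15, rank 2406), Rbpj (1.17, rank 2524), Adam17 (1.35, rank 3295) and Maml2 (1.43, rank 3644), all nearer than the median tested gene. Hes1 (1.85, rank 5741) and Maml1 (2.02, rank 6803) lay beyond that median. The measure is not scaled to a gene's spread, and nearness does not mean a change in the same direction. Notch1 and Rbpj had log2 fold changes of −0.55 and −0.01, and Maml2, ranked further away, had 1.08.

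**Figure D4:**
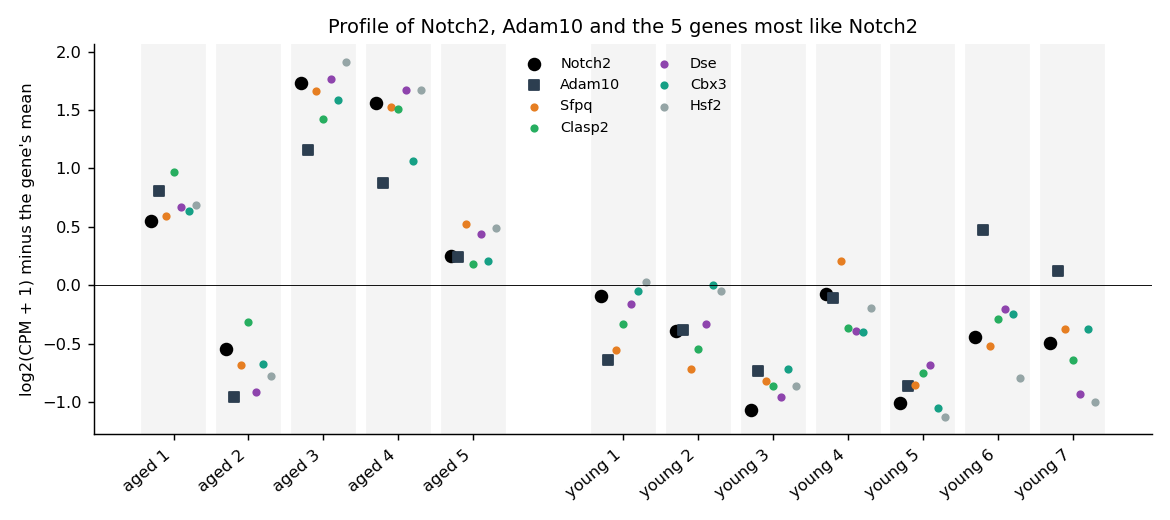
Log2(CPM + 1) minus the gene's own mean over 12 libraries, for Notch2 (large circles), Adam10 (squares) and the 5 genes most like Notch2 (small circles), in aged (left) and young (right) libraries. Aged libraries 3 and 4 are highest and aged library 2 lies below 0 for all 7 genes. The 5 genes were picked for likeness to Notch2 over these same libraries, so their shared pattern follows from that choice.

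The rest of the pathway was described through 66 further genes grouped by role, of which 50 were tested. None was called by edgeR's quasi-likelihood test in either direction (1 of 9550 genes called, 0.0105%), and 2 (Jag1 and Maml3) had an unadjusted p under 0.05, which 5.97% of all genes tested had. DESeq2 called Maml3 alone (1.27% of genes called), and edgeR with legacy=FALSE and limma with voom weights called none. Of the 50, 26 had positive log2 fold changes (52%), against 49.5% of all genes tested. The counts of signs by role below are descriptions and were not tested.

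Of 6 ligands only Jag1, the Jagged ligand, was measurable. Dll1, Dll3, Dll4 and Dlk1 were under 3 counts in every library, and Jag2 reached at most 6 counts. Jag1 was at 89.9, 1.2, 125, 94.2 and 50.6 normalised CPM in aged libraries 1 to 5, and young libraries ranged from 3.4 to 53.6 with a median of 20.8. Aged libraries 1, 3 and 4, the highest for Notch2, exceeded every young library, and aged library 2 was under all of them. Jag1 had a log2 fold change of 1.76 ± 0.78 (SE, edgeR quasi-likelihood adjusted p = 0.774). It was 0.25 without aged libraries 1, 3 and 4, which held the most Jag1, so a lower value was fixed in advance. Notch3, the receptor of vascular smooth muscle, had 60 counts in 1 young library and under 3 in all others.

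All 7 gamma-secretase genes were tested, with 1 positive and 6 negative log2 fold changes (median −0.69). Psenen, the small subunit needed for activation of the complex, was the most abundant one at a median of 632 FPKM, and was at 382 ± 142 in aged and 429 ± 189 normalised CPM in young libraries (SD; log2 fold change −0.17 ± 0.34, SE, and 0.02 without aged library 5). The whole list had 0 positive and 7 negative values without aged libraries 1, 3 and 4.

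The 6 genes of receptor maturation were Furin, the convertase of the first cut during transport, and sugar transferases. All 6 had negative values, with a median of −0.26, whereas 49.5% of all genes tested were positive. For all but Poglut1 the value was smaller than its standard error. Without aged libraries 1, 3 and 4, 4 of 6 were negative. Poglut1, a glucosyltransferase, was at 5.9 ± 11.0 in aged and 31.2 ± 22.3 normalised CPM in young libraries. The aged mean rested on library 2, and the log2 fold change of −2.39 ± 1.58 (SE) became −4.90 without it. Mfng, a fringe sugar transferase, had a log2 fold change of −1.08 ± 1.72 (SE), which was −1.81 without aged library 5.

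Of 11 tested genes of endocytosis and turnover, 8 had positive and 3 negative values (median 0.57). Mib1, a ubiquitin ligase that acts on Notch ligands, was at 110 ± 47.9 in aged and 74.0 ± 21.9 normalised CPM in young libraries (SD; log2 fold change 0.57 ± 0.37, SE). Itch, a ubiquitin ligase that acts on Notch itself, was at 25.3 ± 9.4 against 50.8 ± 24.5 normalised CPM, aged against young (log2 fold change −1.01 ± 0.55, SE, edgeR adjusted p = 0.966). The values of Numb, an endocytic adaptor that opposes Notch (1.11 ± 1.71, SE), Fbxw7, which marks the intracellular domain for destruction (1.24 ± 1.42, SE), and Neurl1a (1.48 ± 1.65, SE) were smaller than their errors. That of Fbxw7 was −0.25 without aged library 3. That of Numb was 0.52 without aged library 5 and 1.86 without young library 4, and that of Neurl1a was 2.15 without young library 4.

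Coactivators other than the 2 in the set had 4 positive and 2 negative values of 6. Crebbp, an acetyltransferase, was at 91.3 ± 52.1 in aged and 85.4 ± 21.5 normalised CPM in young libraries (SD; log2 fold change 0.10 ± 0.38, SE, and −0.29 without aged library 5). Maml3, the third Mastermind-like gene, was at 0 counts in 4 aged libraries and 1 count in the other, and had 127, 2, 151, 213, 108, 0 and 128 counts in young libraries 1 to 7. So 5 of 7 young libraries held at least 108 counts while young libraries 2 and 6 held 2 and 0 counts, next to an aged range of 0 to 1 (edgeR quasi-likelihood adjusted p = 0.282, between 0.0199 and 1 over 15 alternatives). Its fitted fold change depends on the prior count and is not given. The median FPKM of Maml3 over all libraries was 0.01, far under that of Maml2.

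The genes listed as corepressors had 9 positive and 4 negative values of 13 (median 0.34). Cir1, the most abundant of this list, was at 82.6 ± 33.0 in aged and 65.4 ± 12.1 normalised CPM in young libraries (log2 fold change 0.34 ± 0.35, SE, and −0.32 without aged libraries 1, 3 and 4). Tle1, a Groucho-family corepressor, had a log2 fold change of 1.91 ± 1.94 (SE), which was 0.89 without aged library 5 and 2.65 without young library 7.

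Among 14 further target genes the classical ones were not detected. Hes5, Hey1, Hey2, Heyl and Nrarp were under 3 counts in every library. Hes7 reached at most 65 counts. The 6 tested targets had 3 positive and 3 negative values (median 0.03). Myc was at 49.5 ± 46.0 in aged and 22.9 ± 23.4 normalised CPM in young libraries (SD; log2 fold change 1.11 ± 0.85, SE, and 0.42 without aged library 3), and Ccnd1, a G1 cyclin, had a log2 fold change of −1.07 ± 1.68 (SE), which was −2.17 without aged library 5, −0.43 without young library 6 and 0.07 without aged libraries 1, 3 and 4. Nr4a1, an immediate-early nuclear receptor and the most abundant of the tested targets, was at 84.0 ± 63.3 in aged and 63.9 ± 34.7 normalised CPM in young libraries (log2 fold change 0.40 ± 0.52, SE, and −0.19 without aged library 5).

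**Figure D5:**
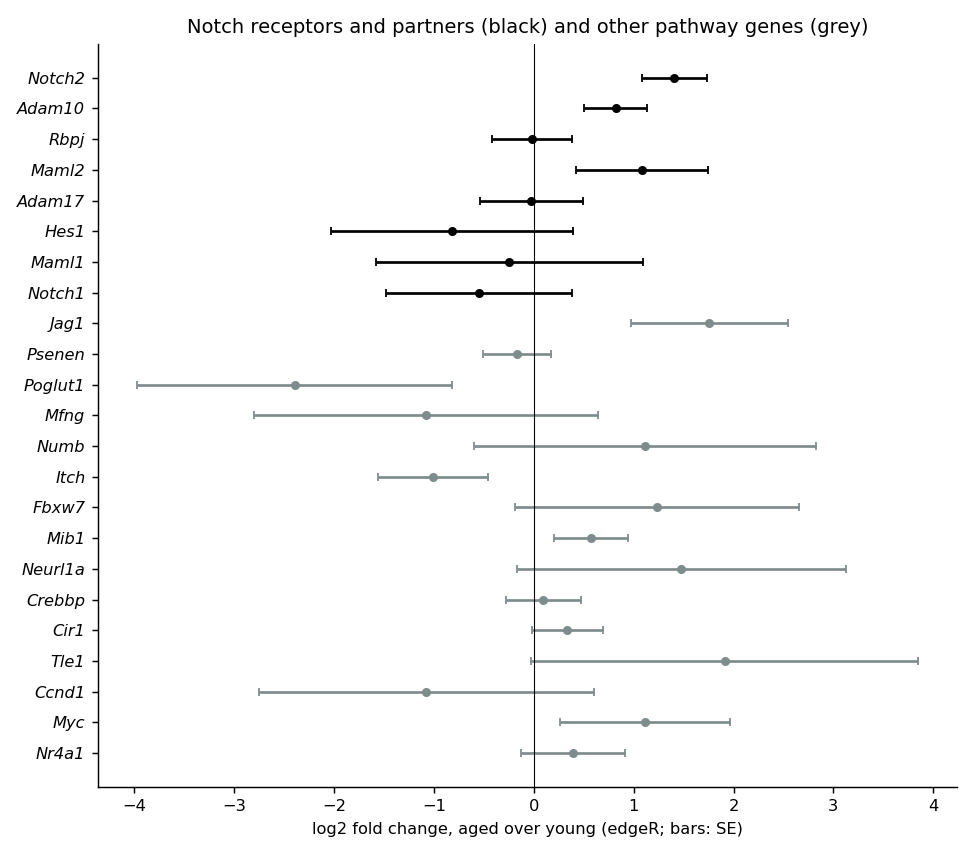
Log2 fold change, aged over young, with its standard error (bars) for the 8 tested genes of the set (black) and further pathway genes (grey). The Notch2, Adam10, Maml2 and Jag1 values lie right of 0 by more than their standard error, whereas those of Hes1, Maml1 and Notch1 have errors that reach 0.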

How the data were processed

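The authors deposited 1 table with estimated counts per gene (expected counts) and a second value per gene and library without a named unit. The authors' second value was taken to be FPKM, since its ratio to the count scales with the library total and with 1 length per gene. Per the submitters' processing notes, the tools were RSEM 1.2.12, HISAT2 2.0.4, DESeq2 1.4.5 and Bowtie2 2.2.5, and the build was GRCm38 (mm10), with no role or order given. The annotation used for counting was not given in the sources used here. Per the labels' protocols, SMART-seq2 chemistry with an oligo-dT primer gave the cDNA and the Nextera XT kit the libraries, a combination that keeps neither strand nor molecule identity. Floors of 3 counts cover counting error only. Counts were rounded (between 88.2% and 90.6% were whole as deposited). No 2 libraries agreed within sampling noise.

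Aged and young libraries were compared over the whole table with edgeR 4.0.16 in R 4.3.3 (TMM, filterByExpr, robust quasi-likelihood fit with the default legacy estimation, Benjamini-Hochberg adjustment over 9550 genes). The fit was tested on simulated data. DESeq2 1.42.0, limma 3.58.1 and libraries left out were alternatives. Each standard error is the log2 fold change divided by the square root of its F statistic. Related genes were compared by log2 ratio of FPKM with an exact sign-flip test over libraries. The genes and lists were chosen with earlier results of these data known. Pathway genes are named if their unadjusted p was under 0.05, if the log2 fold change was at least 1 in size at a mean of at least 5 CPM, or if they had the highest mean CPM of their list. Some genes that this rule names are not reported here. Markers for oligodendrocytes, astrocytes, neurons, T cells and neutrophils were also summed, and no sum exceeded 94.1 CPM in any library (oligodendrocytes 30.1 to 69.0 CPM in aged and 27.0 to 94.1 in young, astrocytes 10.2 to 73.1 and 10.4 to 57.0, neurons 8.1 to 71.3 and 0.10 to 33.4, T cells 2.5 to 29.6 and 3.7 to 55.8, neutrophils 7.8 to 91.6 and 10.4 to 84.7, in the same order). Coordinates, names and promoter windows come from RefSeq tables of GRCm38.p6, and exon overlaps from GENCODE M21 of the same build.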

Additional observations from a re-analysis of the deposited data

Results flagged for a closer look

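Among the genes named in the report, 1 library stood far from the others of its age in 9 of 54 groups examined. The rule was the gap to the nearest other library relative to the whole range. Its rate of about 5% by chance holds for normally distributed values only. Normalised CPM are skewed and often at 0, so the 9 cannot be set against that rate. Each of the 9 was the highest of its group. The 9 values are in normalised CPM. Maml1 was at 57.7 in young library 1, with the other young libraries at most at 14.4. Adam17 was at 106 in young library 5 and at most at 49.7 in the other young ones. Notch4 was at 12.02 in aged library 4, with the other aged ones at most at 0.80, and at 2.62 in young library 3, with the other young ones at most at 0.037. Jag1 was at 53.6 in young library 1 and at most at 22.4 in the other young ones. Poglut1 was at 25.5 in aged library 2 and at most at 2.91 in the other aged ones. Numb was at 26.7 in young library 4 and at most at 11.1 in the other young ones. Fbxw7 was at 96.5 in aged library 3 and at most at 27.5 in the other aged ones. The value of Maml3 in aged library 4, 0.048, is a single count.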

How the results depend on the processing

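The number of genes called (1 with all libraries) was 38 with edgeR's legacy=FALSE, 121 with DESeq2, 13 without the filter on low counts, 2 with limma and voom weights, 6 with limma on log2(FPKM + 1), between 0 and 75 on leaving out single libraries (75 without aged library 2) and 0 without aged libraries 1, 3 and 4; the cause was not tested. Notch2 was among the called genes under 3 of the 20 alternatives, legacy=FALSE (0.398% of genes called), DESeq2 (1.27%) and without aged library 2 (0.755%), and no other gene of the set was called under any of them. Its log2 fold change ranged from 0.36 to 1.63 over all 20, with 0.36 from leaving out aged libraries 1, 3 and 4, which held the most Notch2. Rbpj took the opposite sign under 7 of the 20 alternatives, Maml1 and Adam17 under 4, Hes1 under 2 and Adam10 under 1. The count of called pathway genes was 0 except with DESeq2 (1, Maml3). Replicate numbers are shared by the ages, but same-numbered libraries did not deviate together (correlations from −0.04 to 0.09 over 5 pairs, and 0 of 5 aged libraries correlated best with their own number). With the replicate number as a block 1 gene was called, and the log2 fold change of Notch2 was 1.23. The 4 ratios between related genes kept their direction under all 15 alternatives each. In the 4 libraries where both Notch1 and Notch4 were above 0, their log2 ratio was 1.69 (exact permutation p adjusted 0.25, in a design that cannot pass the threshold). Low counts limit Notch4, Maml3, Hes1 and Maml1.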
